A study of Mus musculus with 24 samples.

Results

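The 10 genes described here encode transcription factors of lung mesenchyme, the embryonic connective tissue from which lung fibroblasts descend: Foxf1, Tbx4, Tbx5, Tbx2, Tcf21, Twist1, Hoxa5, Meox2, Prrx1 and Gata6. They were taken by symbol, as a list of lineage regulators that was drawn up with earlier results of these data known, from the 55291 gene names counted in each library. All 10 passed the filter on low counts and were tested. Pulmonary fibroblasts were isolated from pools of 3 to 4 lungs of C57BL/6 mice aged 4 to 8 weeks, either WT or TLR4-/- on the same background, grown to passages 3 to 6, kept overnight in reduced-serum Opti-MEM and then treated for 24 h. Cells of each genotype were given saline alone (PBS), recombinant mouse cold-inducible RNA-binding protein at 1 μg/ml (rmCIRP), recombinant mouse transforming growth factor β1 at 2 ng/ml (rmTGF-β1), or rmCIRP and rmTGF-β1 together, called both below. The 8 conditions had 3 libraries each, 24 in all. Extracellular CIRP is a damage signal read by Toll-like receptor 4 (TLR4), TGF-β1 is the main fibrogenic cytokine, and the comparisons ask whether the fibroblasts kept their regional transcription factor levels under either protein.

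Transcription factors of this kind give mesenchymal cells a memory of where in the body they arose, and lung fibroblasts keep many of them in culture. Foxf1 is a forkhead factor of visceral mesenchyme that acts downstream of hedgehog signals from the epithelium, and Tbx4 and Tbx5 are T-box factors that act together in lung bud mesenchyme, upstream of the branching signal Fgf10. Tcf21 marks lung mesenchyme and its lipid-storing fibroblasts, Hoxa5 is a positional homeobox gene needed for lung and airway formation, and the others act in mesenchyme of several organs.

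Libraries held between 29853346 and 39664606 reads counted on genes. Tlr4 mRNA was 629.7 to 802 normalized counts (counts divided by the size factor of the library) in WT and 702 to 941 in libraries labelled TLR4-/-, and with PBS it was higher under the TLR4-/- label, by 0.25 (adjusted p = 0.00123) on the log2 scale. The sources used here do not say which part of the gene is deleted, and a count per gene symbol cannot show the loss of an exon, so the genotype is written throughout as a label. Markers of fibroblasts, 15 genes, summed to 534823 to 750956 normalized counts in WT and 565162 to 689344 under the TLR4-/- label, and none of the 15 was near 0. The sum of 13 macrophage markers was 73304 to 93896 in WT and 301515 to 382769.8 under the TLR4-/- label, with none of the 13 near 0 in either. Of 8 epithelial markers, which summed to 24.4 to 116 and 275 to 346, Nkx2-1, Sftpb and Scgb1a1 had at most 3 counts in every library. The plot of marker sums shows the macrophage and fibroblast lists by library. One library stood furthest from its condition, TLR4-/- both replicate 3. Its root mean square log2 difference from the other libraries of its condition was 0.404, against at most 0.327 in the other 23, and 5 of the 10 genes (Foxf1, Tbx2, Tbx5, Hoxa5 and Meox2) lay more than 20% below or 25% above the range of the other 2 libraries, against at most 2 genes in any other library. Its sum of 7 smooth muscle markers was 173150.0, against 248179 and 267599.8 in replicates 2 and 1, so values that rest on it are given with and without it. TLR4-/- rmTGF-β1 replicate 3 departed by less, with a root mean square difference of 0.308. The chi-square per degree of freedom of its counts was 11.9 and 15.6 against replicates 1 and 2, which gave 3.57 between them. Its smooth muscle sum was 250214, against 306793 and 308256 in replicates 1 and 2.

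**Figure D1:**
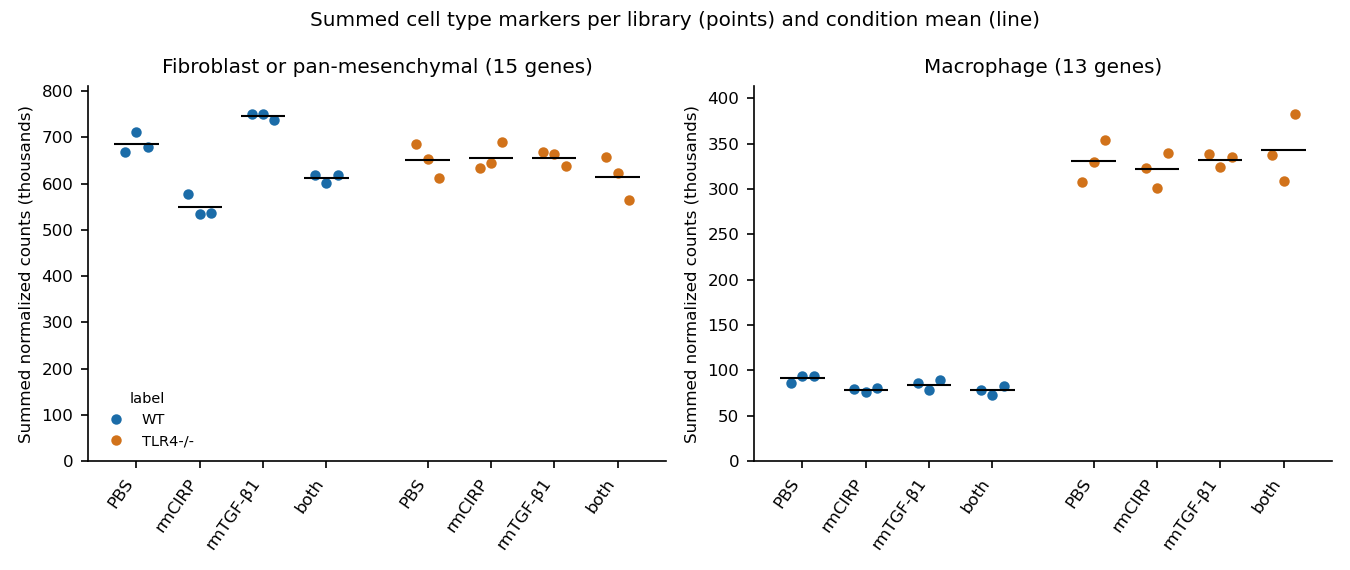
Summed normalized counts (linear axis from 0) of 15 fibroblast or pan-mesenchymal markers (left) and 13 macrophage markers (right) in each of the 24 libraries, by genotype label and treatment. Points are libraries and lines are means of 3; the macrophage sum of every library labelled TLR4-/- lies above that of every WT library, while the fibroblast sums of the labels overlap and fall with rmCIRP in WT.

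For 6 of the members, Tbx4, Tcf21, Hoxa5, Meox2, Twist1 and Prrx1, a promoter window from RefSeq (build GRCm38.p6) covers 250 bases before to 50 bases after the start of the gene. The windows of 3 are shown because their genes stand for the 3 kinds of response described below: Tbx4 rose with rmCIRP, Tcf21 fell with rmCIRP, and Prrx1 fell with rmTGF-β1. Each is given 5′ to 3′ on the strand of the gene, with capitals marking E-boxes (CANNTG, the same on both strands), the letters bound by basic helix-loop-helix factors, the class to which the members Tcf21 and Twist1 belong. The windows lie at chr11:85896515-85896814 on the plus strand, chr10:22820094-22820393 on the minus strand and chr1:163313601-163313900 on the minus strand.
Tbx4: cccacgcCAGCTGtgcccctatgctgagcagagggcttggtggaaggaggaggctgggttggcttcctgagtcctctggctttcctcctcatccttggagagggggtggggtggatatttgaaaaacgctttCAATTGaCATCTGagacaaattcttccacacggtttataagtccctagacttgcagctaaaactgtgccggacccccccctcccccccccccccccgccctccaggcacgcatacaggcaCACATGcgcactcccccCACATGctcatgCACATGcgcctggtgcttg
Tcf21: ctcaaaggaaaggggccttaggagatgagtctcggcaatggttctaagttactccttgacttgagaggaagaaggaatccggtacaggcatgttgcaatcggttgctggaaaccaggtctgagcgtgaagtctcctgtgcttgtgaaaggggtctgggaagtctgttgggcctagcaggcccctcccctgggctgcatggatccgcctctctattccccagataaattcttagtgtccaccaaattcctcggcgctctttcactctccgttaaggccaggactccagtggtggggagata
Prrx1: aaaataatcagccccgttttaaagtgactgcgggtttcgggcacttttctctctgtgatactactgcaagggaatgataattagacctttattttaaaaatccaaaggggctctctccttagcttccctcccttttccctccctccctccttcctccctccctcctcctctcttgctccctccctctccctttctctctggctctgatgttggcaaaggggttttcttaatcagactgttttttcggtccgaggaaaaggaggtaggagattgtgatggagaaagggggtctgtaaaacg

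The Tbx4 window held 6 E-boxes and the Tcf21, Prrx1 and Twist1 windows none, while Hoxa5 held 2 and Meox2 held 1. An E-box occurred in 72.31% of the 32851 mouse windows of this length. Letters of the NF-κB type (GGGA and CC with any 4 bases between them, either strand) occurred once each in the windows of Tcf21, Hoxa5 and Meox2 and in 20.73% of all windows. The SMAD-type letters CAGAC (either strand) occurred 3 times in Tcf21, 2 times in Prrx1 and once in Twist1, against 49.59% of all windows with at least 1. Neither AP-1 letters (TGANTCA) nor T-box letters (AGGTGTGA) were in any of the 6 windows, and they were in 7.808% and 1.275% of all windows. A match is a description of the letters only. Foxf1, Tbx2, Tbx5 and Gata6 have no window in that table.

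Divided by exon length, the level of the 10 genes in WT cells with PBS ran from 1214 normalized counts per kilobase for Prrx1 to 35.7 for Meox2. Foxf1 (1179.9), Hoxa5 (944) and Tbx2 (691) came next after Prrx1 on this scale, followed by Tcf21 (555), Tbx4 (401), Twist1 (222), Tbx5 (159.9) and Gata6 (105). Every gene was counted in every library, the lowest value being 7.57 normalized counts of Meox2 in TLR4-/- rmTGF-β1 replicate 1. The mean of the highest condition over that of the lowest, within WT cells, had a median of 1.54-fold over the 10 genes and 1.25-fold over the 16258 genes tested. Under the TLR4-/- label the medians were 1.36-fold and 1.17-fold. Twist1 had the narrowest range in WT (1.10-fold) and Meox2 the widest (2.90-fold).

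**Figure D2:**
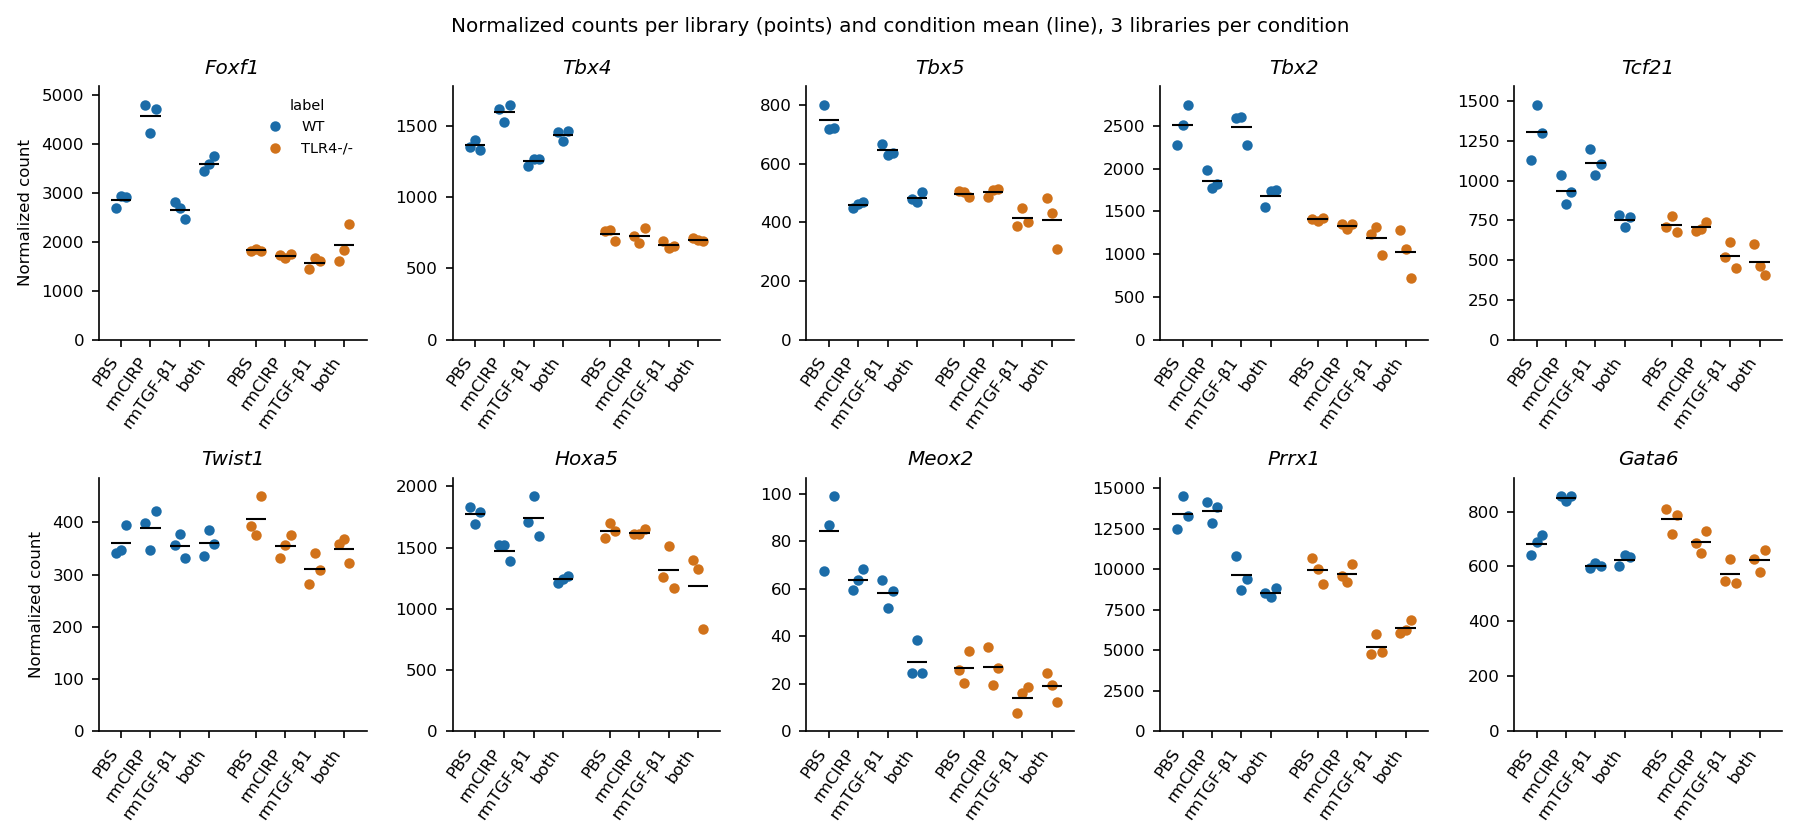
Normalized counts (linear axes from 0, a separate scale for each gene) of the 10 transcription factors in 24 libraries, by treatment, with WT in blue and the TLR4-/- label in orange. Points are libraries and black lines are means of 3; in WT, Foxf1, Tbx4 and Gata6 are highest with rmCIRP and Tbx5 and Tcf21 highest with PBS, and Prrx1 is lower with rmTGF-β1 in either label.

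Treatment of WT cells with rmCIRP moved these genes in opposite directions. Foxf1, Gata6 and Tbx4 rose, while Tbx5, Tcf21, Tbx2 and Hoxa5 fell, so that 7 of 10 were called at an adjusted p under 0.1 by edgeR's quasi-likelihood test. Of all genes tested, 43.9% were called in this comparison, and 50.8% had no overlap between the groups. The median log2 fold change of the 10 was -0.13, against -0.022 over all genes, and the median size was 0.36 against 0.18. Log2 fold changes are given ± SE of the fit. P-values here and below measure only the spread between these libraries, which may be technical, since nothing says that replicates came from separate pools of lungs.

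Foxf1 had 2699, 2937 and 2912 normalized counts with PBS and 4802, 4221 and 4708 with rmCIRP. Every rmCIRP library lay above every PBS library, and the log2 fold change was 0.68 ± 0.087 (adjusted p = 2.01e-06), a level 60.0% higher. Gata6, a zinc finger factor of endoderm, heart and smooth muscle, had 643, 689.9 and 713 counts with PBS and 855, 837 and 855 with rmCIRP, again without overlap, and rose by 0.31 ± 0.061 (adjusted p = 0.000301). Tbx4 rose least, from 1355, 1399.7 and 1333 to 1621, 1529.9 and 1648, a log2 fold change of 0.23 ± 0.048 (adjusted p = 0.000650).

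Tbx5, the T-box partner of Tbx4, went the other way. It had 801, 719 and 722 normalized counts with PBS and 449.9, 464 and 468 with rmCIRP, so that its level was 38.6% lower and its log2 fold change -0.70 ± 0.094 (adjusted p = 3.32e-06). Tbx2, a T-box repressor that keeps lung mesenchyme proliferating, went from 2269, 2508 and 2745 to 1979, 1775 and 1823, a change of -0.44 ± 0.12 (adjusted p = 0.00724). Tcf21 went from 1133, 1478 and 1303 to 1034, 855 and 927, or -0.48 ± 0.11 (adjusted p = 0.00178). In these 3 genes no rmCIRP library reached the lowest PBS library. Hoxa5 fell by less, from 1835, 1689 and 1791 to 1523, 1518 and 1388, or -0.27 ± 0.12 (adjusted p = 0.0756), and its call was lost when WT PBS replicate 1 or 3 or WT rmCIRP replicate 2 or 3 was left out (adjusted p = 0.118 to 0.249).

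The remaining 3 genes did not pass the test, and their groups overlapped. Prrx1, a paired-type homeobox gene expressed across limb and body wall mesenchyme, had 12513 to 14504 counts with PBS and 12846 to 14167 with rmCIRP, with a 95% interval of the log2 fold change of -0.16 to 0.18. The interval was -0.083 to 0.29 for Twist1, which acts in early mesoderm and in epithelial to mesenchymal transition. For Meox2, a homeobox gene of somites and vascular smooth muscle, the change was -0.40 (adjusted p = 0.133), and without WT PBS replicate 1 it was -0.53 (adjusted p = 0.0705).

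The summed fibroblast markers also differed, at 667841 to 712229 with PBS and 534823 to 576908 with rmCIRP, and 10 of the 15 markers fell and 2 (Dcn and Pdgfra) rose. The smooth muscle sum was 379135 to 407877 with PBS and 302565 to 336367 with rmCIRP. The macrophage sum was 86227 to 93896 and 75751 to 80179.8, with 6 of the 13 macrophage markers higher and 7 lower. The part of these differences in the result was not tested. In RNA from a whole culture, fewer cells of a type and less RNA per cell cannot be told apart. With libraries scaled by the summed fibroblast markers in place of the standard scaling, the median of all genes moved to 0.31, Foxf1 was at 1.00 (adjusted p = 4.62e-08) and Tbx5 at -0.38 (adjusted p = 0.000582). On that scale Tbx2 (-0.11, adjusted p = 0.364) and Tcf21 (-0.15, adjusted p = 0.154) were no longer called, and Hoxa5 turned to 0.056 (adjusted p = 0.657). Twist1 (0.43, adjusted p = 0.000715) and Prrx1 (0.34, adjusted p = 0.00112) were called higher there, Prrx1 close to the all-gene median of 0.31. With the geometric mean of the markers the median moved to 0.20, Tcf21 was at -0.26 (adjusted p = 0.0388), Tbx2 at -0.22 (adjusted p = 0.155) and Hoxa5 at -0.055 (adjusted p = 0.758). Of all 16258 genes, 10766 were called on the summed scale and 8574 on the geometric mean scale, against 7130 otherwise.

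**Figure D3:**
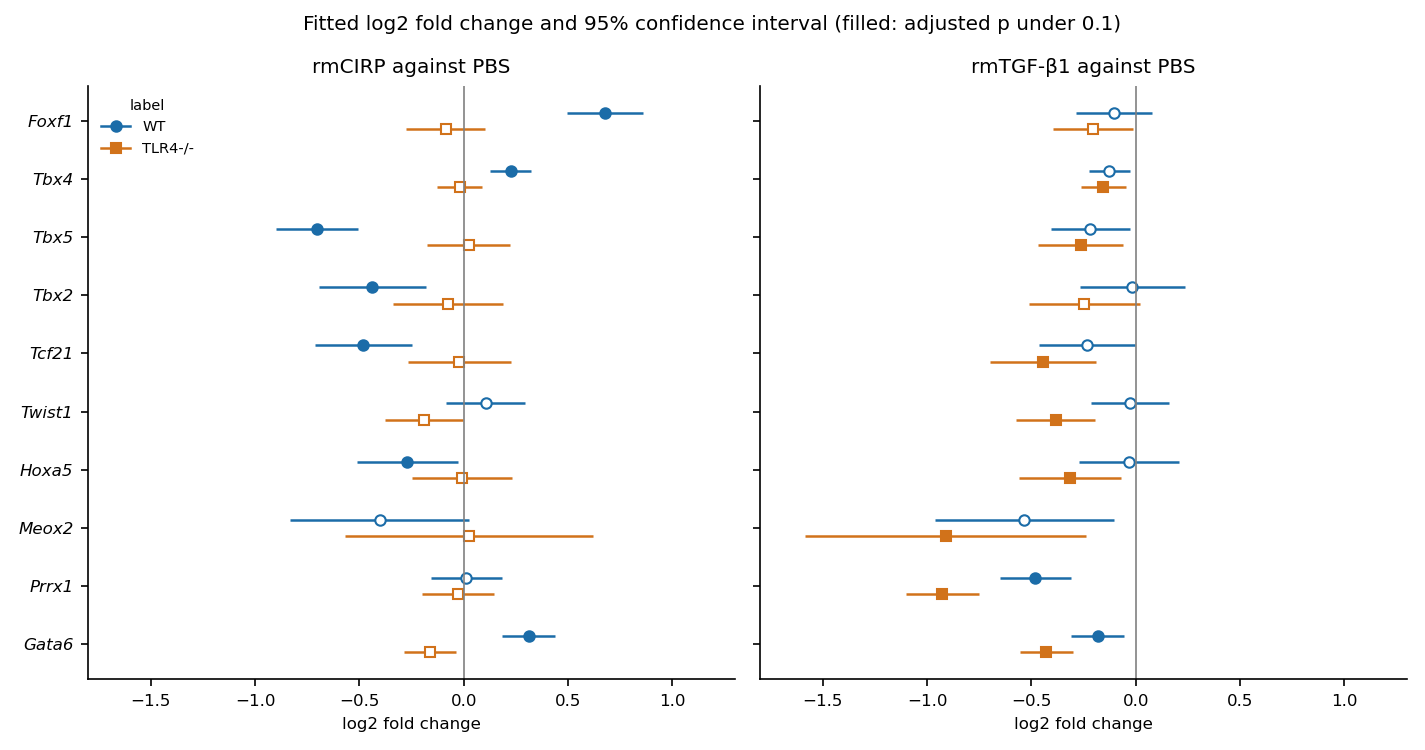
Fitted log2 fold changes against PBS (points) with 95% confidence intervals (lines) for rmCIRP (left) and rmTGF-β1 (right), WT as circles and the TLR4-/- label as squares, 3 libraries per condition. Filled symbols passed an adjusted p under 0.1: 7 WT and no TLR4-/- values with rmCIRP, 2 WT and 8 TLR4-/- values with rmTGF-β1.

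None of the 10 genes was called with rmCIRP under the TLR4-/- label, by edgeR or by DESeq2, and 2 (Gata6 and Twist1) had an unadjusted p under 0.05. Over all genes edgeR called 0%, with 1136 of 16258 at an unadjusted p under 0.05, and DESeq2 called 33. Foxf1 had 1816, 1847 and 1812 normalized counts with PBS and 1722, 1666 and 1748 with rmCIRP, slightly lower and without overlap, at -0.086 (adjusted p = 0.934). Tbx5 had 506, 503 and 485 and 488, 511 and 514, which overlapped. Gata6 had 808, 718 and 787 and 687, 649 and 727, at -0.16 (adjusted p = 0.548). The 95% intervals of 9 of the genes lay between -0.38 and 0.23 on the log2 scale. Meox2, at 19.5 to 35.4 counts per library, had the widest, -0.57 to 0.62.

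The difference between the labels in the response to rmCIRP (TLR4-/- minus WT) was called for 6 of the 10 genes, against 31.4% of all genes. It was negative for the genes that rose in WT, -0.76 ± 0.13 (adjusted p = 0.000102) for Foxf1, -0.47 ± 0.086 (adjusted p = 0.000300) for Gata6 and -0.24 ± 0.070 (adjusted p = 0.0135) for Tbx4. For Tbx5 the difference was positive, 0.73 ± 0.13 (adjusted p = 0.000335), and for Tcf21 it was 0.46 ± 0.16 (adjusted p = 0.0445). These differences share the WT libraries with the WT comparison above and are not separate evidence for it. In the same difference 5 of 13 macrophage markers were higher and 6 lower, and 9 of 15 fibroblast markers were higher and 1 lower, and their part in the result was not tested.

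Tbx2 (0.36, adjusted p = 0.145, interval -0.0046 to 0.73) and Hoxa5 (0.26, adjusted p = 0.272, interval -0.081 to 0.60), both lower with rmCIRP in WT, were not called as different between the labels. Twist1 was called at -0.29 (adjusted p = 0.0999), and the call was lost without any of 8 of the 12 libraries, namely WT PBS replicates 1 and 2, WT rmCIRP replicates 1 and 3, TLR4-/- PBS replicates 1 and 3 and TLR4-/- rmCIRP replicates 1 and 2 (adjusted p = 0.102 to 0.212). The Tcf21 difference was lost without WT PBS replicate 2, WT rmCIRP replicate 2 or TLR4-/- PBS replicate 3 (adjusted p = 0.110 to 0.142). It was also lost with libraries scaled by the summed (0.11, adjusted p = 0.508) or the geometric mean (0.26, adjusted p = 0.201) of fibroblast markers, where the median of all genes was -0.32 and -0.17. Foxf1, Tbx4, Tbx5 and Gata6 held their calls without each library in turn and on both marker scales. Of all 16258 genes, 9038 were called on the summed scale and 5332 on the geometric mean scale, against 5113 otherwise. Both scales moved the median of all genes downwards, the direction of the Foxf1, Tbx4 and Gata6 differences, so they could not weaken those calls and lend them no support.

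With rmTGF-β1 no gene rose in WT cells. Prrx1 and Gata6 fell, 2 of 10, against 12.4% of all genes, of which 29.7% had no overlap between the groups. Prrx1 had 12513, 14504 and 13278 normalized counts with PBS and 10834, 8723 and 9410.3 with rmTGF-β1. The groups did not overlap, the level was 28.3% lower, and the log2 fold change was -0.48 ± 0.083 (adjusted p = 0.000596). Gata6 went from 643, 689.9 and 713 to 593, 612 and 602, a change of -0.18 ± 0.062 (adjusted p = 0.0699) that lost its call without WT PBS replicate 2 or 3 or any rmTGF-β1 library (adjusted p = 0.135 to 0.239). Tbx4 (1333 to 1399.7 with PBS, 1217 to 1271 with rmTGF-β1), Tbx5 (719 to 801 and 631 to 667) and Meox2 (67.4 to 98.9 and 52.0 to 63.5) did not overlap between the groups either, but missed the threshold, at -0.13 (adjusted p = 0.111), -0.22 (adjusted p = 0.153) and -0.53 (adjusted p = 0.121). Without WT PBS replicate 1, Meox2 was at -0.66 (adjusted p = 0.0781).

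Foxf1, Tbx2, Hoxa5 and Twist1 overlapped between PBS and rmTGF-β1, with 95% intervals of -0.29 to 0.077, -0.27 to 0.23, -0.27 to 0.21 and -0.22 to 0.16, and Tcf21 was at -0.23 (adjusted p = 0.224). The summed fibroblast markers were 667841 to 712229 with PBS and 736726 to 750956 with rmTGF-β1. When only the 6 libraries compared were fitted, or when libraries were scaled by the summed markers, 6 genes were called lower in place of 2. Of all genes, 2983 of 15088 and 3719 of 16258 were then called, against 2019 of 16258 otherwise. The others then called were Tbx4, Tbx5, Tcf21 and Meox2, at -0.24 (adjusted p = 0.00642), -0.34 (adjusted p = 0.00977), -0.35 (adjusted p = 0.0132) and -0.65 (adjusted p = 0.0406) on the summed marker scale, where the median of all genes was -0.14.

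Under the TLR4-/- label rmTGF-β1 lowered 8 of the 10 genes, against 23.9% of all genes called, and in all 10 every rmTGF-β1 library lay below every PBS library, while 33.8% of all genes had groups without overlap in either direction. Prrx1 had 10681, 10030.0 and 9109 normalized counts with PBS and 4765, 5973 and 4883 with rmTGF-β1, a fall to a level 47.4% lower and a log2 fold change of -0.93 ± 0.084 (adjusted p = 1.46e-07). Gata6 went from 808, 718 and 787 to 547, 627 and 541, or -0.43 ± 0.062 (adjusted p = 3.84e-05). Tcf21 went from 710.3, 776 and 679 to 521, 617 and 449, or -0.45 ± 0.12 (adjusted p = 0.0137). Both bHLH members fell, and Twist1, which was called in none of the 4 comparisons within WT, went from 392, 375 and 450.0 to 281, 341 and 309, or -0.38 ± 0.091 (adjusted p = 0.00510).

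Meox2 had 25.7, 20.1 and 33.8 counts with PBS and 7.57, 15.9 and 18.6 with rmTGF-β1, a change of -0.91 ± 0.32 (adjusted p = 0.0562) on few reads. Hoxa5 (-0.32, adjusted p = 0.0681), Tbx5 (-0.26, adjusted p = 0.0636) and Tbx4 (-0.16, adjusted p = 0.0416) fell by less. Foxf1 (-0.20, adjusted p = 0.133) and Tbx2 (-0.25, adjusted p = 0.204) were not called. Scaled by the geometric mean of the fibroblast markers, 5 of the 10 were called in place of 8, and Tbx4 (-0.084, adjusted p = 0.466), Tbx5 (-0.19, adjusted p = 0.304) and Hoxa5 (-0.25, adjusted p = 0.233) were not. Of all genes, 2695 of 16258 were called on that scale, against 3884 otherwise, and the median of all genes was 0.067. In this comparison 4 of 15 fibroblast markers were higher and 5 lower, 2 of 5 mesothelial markers were lower, and their part in the result was not tested. Prrx1, Gata6 and Twist1 held their calls without each library in turn. Leaving out TLR4-/- PBS replicate 1 or 2 or TLR4-/- rmTGF-β1 replicate 3 took away the call of Tbx4 and Tbx5, which was also lost without rmTGF-β1 replicate 2 for Tbx4 and without rmTGF-β1 replicate 1 for Tbx5 (adjusted p = 0.118 to 0.160 and 0.141 to 0.201). Hoxa5 lost its call without PBS replicate 2 or 3 or rmTGF-β1 replicate 1 or 3 (adjusted p = 0.128 to 0.270), Meox2 without PBS replicate 1 or 3 or rmTGF-β1 replicate 1 (adjusted p = 0.102 to 0.243), and Tcf21 without rmTGF-β1 replicate 3 (adjusted p = 0.1002).

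Whether the response to rmTGF-β1 differed between the labels was tested directly. By edgeR the response to rmTGF-β1 differed between them for 0 of the 10 genes, with 3 at an unadjusted p under 0.05 (Prrx1, Gata6 and Twist1), and for 0.0861% of all genes. The difference was -0.45 (adjusted p = 0.155) for Prrx1, with a 95% interval of -0.69 to -0.20, -0.36 (adjusted p = 0.312) for Twist1 and -0.25 (adjusted p = 0.303) for Gata6. DESeq2 called 1 of the 10, Prrx1, at -0.46 (adjusted p = 0.0380), and edgeR did so without TLR4-/- rmTGF-β1 replicate 2, at -0.55 (adjusted p = 0.0318). DESeq2 gave Meox2 no adjusted p here. It called 163 of the 34285 genes with a count, not all of which were given an adjusted p. Of all genes, edgeR without that library called 119 of 16528, against 14 of 16258 with it.

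When rmCIRP was given together with rmTGF-β1 to WT cells, 8 of the 10 genes differed from rmTGF-β1 alone, 2 higher and 6 lower, against 42.2% of all genes called. This comparison shares its rmTGF-β1 libraries with that of rmTGF-β1 against PBS. The higher genes were again Foxf1, with 2817, 2695 and 2464 normalized counts in rmTGF-β1 and 3448, 3591 and 3764 in both, and Tbx4, with 1217, 1271 and 1266 and 1454, 1392 and 1462. Their log2 fold changes were 0.43 ± 0.088 (adjusted p = 0.000492) and 0.19 ± 0.048 (adjusted p = 0.00302), and the groups did not overlap. Gata6, which rose with rmCIRP alone, had 593, 612 and 602 and 602, 641 and 633, which overlapped, at 0.048 (adjusted p = 0.597).

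Meox2 had the largest fall, from 63.5, 52.0 and 59.2 with rmTGF-β1 to 24.5, 38.3 and 24.4 with both, or -1.02 ± 0.25 (adjusted p = 0.00280). Tbx2 fell by 0.57 ± 0.12 (adjusted p = 0.000898), Tcf21 by 0.56 ± 0.12 (adjusted p = 0.000566), Hoxa5 by 0.49 ± 0.12 (adjusted p = 0.00230) and Tbx5 by 0.42 ± 0.094 (adjusted p = 0.00135) on the log2 scale. In these 5 genes every library with both lay below every rmTGF-β1 library, and 49.98% of all genes had groups without overlap. Prrx1 was called at -0.18 (adjusted p = 0.0998) with overlapping groups. That call was lost without rmTGF-β1 replicate 1 or 3 or any library with both (adjusted p = 0.115 to 0.447). On the summed and geometric mean marker scales Prrx1 was at 0.11 (adjusted p = 0.283) and 0.015 (adjusted p = 0.883) and Tbx5 at -0.13 (adjusted p = 0.206) and -0.23 (adjusted p = 0.106), where the median of all genes was 0.28 and 0.18.

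Against rmCIRP alone, adding rmTGF-β1 lowered 6 of the 10 genes in WT and raised none, against 20.5% of all genes called. Prrx1 went from 14167, 12846 and 13815 to 8534, 8295 and 8833, or -0.67 ± 0.083 (adjusted p = 5.35e-06), and Gata6 from 855, 837 and 855 to 602, 641 and 633, or -0.45 ± 0.062 (adjusted p = 2.13e-05). With both, Gata6 reached at most 640.6, just under the lowest PBS library at 642.9, although rmCIRP alone placed it above every PBS library. Both against PBS was not tested in WT. Foxf1 fell from 4802, 4221 and 4708 to 3448, 3591 and 3764, or -0.35 ± 0.087 (adjusted p = 0.00708), which is still above every PBS library. Meox2 fell by 1.15 ± 0.25 (adjusted p = 0.00245), Tcf21 by 0.32 ± 0.12 (adjusted p = 0.0749) and Tbx4 by 0.16 ± 0.048 (adjusted p = 0.0248). The Tcf21 call was lost without rmCIRP replicate 1 or 3 or any library with both (adjusted p = 0.112 to 0.251), and the Tbx4 call without rmCIRP replicate 3 or replicate 2 of both (adjusted p = 0.106 to 0.146).

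A departure from additive effects of the proteins on the log2 scale was called by edgeR for 0 of the 10 genes in WT, with 2 (Gata6 and Tbx5) at an unadjusted p under 0.05. DESeq2 called 0 as well, but gave Meox2 no adjusted p. Over all genes edgeR called 0.0492%. DESeq2 called 37 of the 34285 genes with a count, not all of which were given an adjusted p. The interaction was -0.26 (adjusted p = 0.627) for Gata6, with a 95% interval of -0.45 to -0.083, and 0.28 (adjusted p = 0.873) for Tbx5, with an interval of 0.0078 to 0.56. Meox2 had the largest estimate and the widest interval, -0.61 and -1.29 to 0.063.

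**Figure D4:**
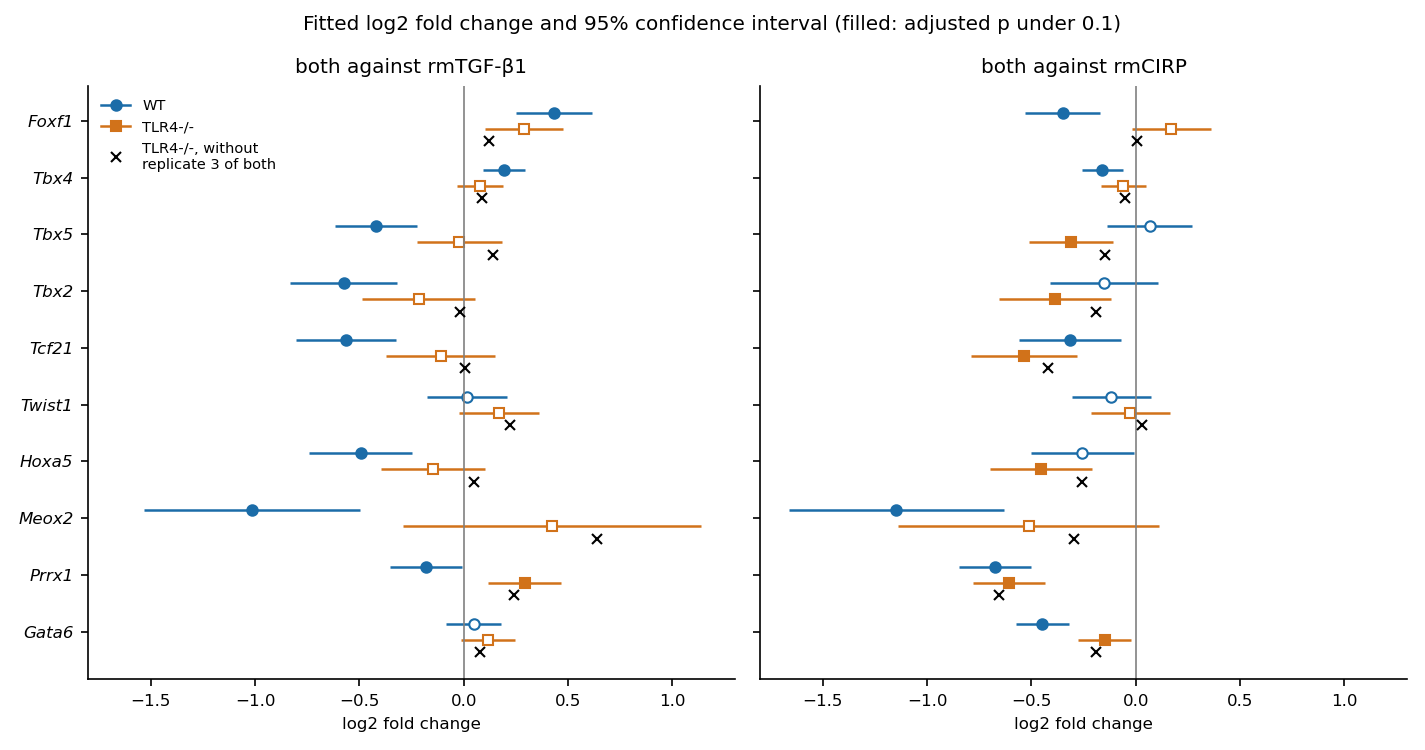
Fitted log2 fold changes (points) with 95% confidence intervals (lines) for rmCIRP and rmTGF-β1 together against rmTGF-β1 alone (left) and against rmCIRP alone (right), WT as circles, the TLR4-/- label as squares, and crosses for the TLR4-/- label without replicate 3 of both. Filled symbols passed an adjusted p under 0.1; on the left 8 WT and 1 TLR4-/- values are filled, on the right 6 and 6.

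Under the TLR4-/- label 1 gene, Prrx1, differed between both and rmTGF-β1 alone, against 2.69% of all genes called. That share rested on single libraries. It stood for 437 of 16258 genes, and the count was 1 of 16512 without replicate 3 of both, 2674 of 16524 without replicate 1 and 738 of 16531 without replicate 2. Without rmTGF-β1 replicates 1, 2 and 3 in turn, it was 0 of 16523, 79 of 16528 and 2141 of 16525. Prrx1 had 4765, 5973 and 4883 normalized counts with rmTGF-β1 and 6079.5, 6251 and 6867 with both, which did not overlap, at 0.29 ± 0.084 (adjusted p = 0.0939). The call was lost without TLR4-/- rmTGF-β1 replicate 1 or 3 or replicate 3 of both (adjusted p = 0.104 to 0.436), and without the last the value was 0.24 (adjusted p = 0.436). Foxf1 was at 0.29 (adjusted p = 0.115), with 1599.8, 1840.4 and 2366 in both. It was called without rmTGF-β1 replicate 3 (0.31, adjusted p = 0.0712) or replicate 1 of both (0.41, adjusted p = 0.00509), and was 0.12 (adjusted p = 0.660) without replicate 3 of both. Tbx2 was at -0.22 (adjusted p = 0.405), at -0.41 (adjusted p = 0.0396) without replicate 1 of both and at -0.019 (adjusted p = 0.982) without replicate 3. Whether these responses differed from those of WT cells was not tested.

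Against rmCIRP alone, 6 of the 10 genes were lower with both under the TLR4-/- label and none higher, against 32.8% of all genes called. Without replicate 3 of both, 4 of the 10 and 3802 of 16512 genes were called. In the comparison with it, all 7 smooth muscle markers were called, 5 lower and 2 higher, 4 of 6 endothelial markers were higher, 3 of 5 mesothelial markers were lower, 2 of 15 fibroblast markers were higher and 5 lower, and their part in the result was not tested. Prrx1 fell from 9593, 9225 and 10306 to 6079.5, 6251 and 6867, or -0.61 ± 0.083 (adjusted p = 2.88e-05), and without replicate 3 of both the change was -0.66 (adjusted p = 2.27e-05). Tcf21 went from 686, 696 and 741 to 601, 463 and 407, or -0.53 ± 0.12 (adjusted p = 0.00288), and was -0.42 (adjusted p = 0.0202) without that library. Hoxa5 had 1398, 1325 and 833 in both, the last value being the lowest of all 24 libraries. Its change was -0.46 ± 0.12 (adjusted p = 0.00702) with the library and -0.26 (adjusted p = 0.0223) without it.

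The calls of Tbx2 and Tbx5 rested on the same library. Tbx2 had 1280.2, 1061 and 719 and Tbx5 483, 431 and 308 normalized counts in both, and their changes went from -0.39 (adjusted p = 0.0313) and -0.31 (adjusted p = 0.0217) with it to -0.19 (adjusted p = 0.193) and -0.15 (adjusted p = 0.142) without it. Gata6 was at -0.15 (adjusted p = 0.0791), at -0.19 (adjusted p = 0.0508) without replicate 3 of both, and not called without rmCIRP replicate 1 or 3 or replicate 1 or 2 of both (adjusted p = 0.107 to 0.296). Foxf1, at 0.17 (adjusted p = 0.179), was called higher without replicate 1 of both (0.29, adjusted p = 0.00800) and was 0.0056 (adjusted p = 0.970) without replicate 3. When only the 6 libraries of these conditions were fitted, 2 of the 10 were called, Tcf21 and Prrx1, and 2710 of 15192 of all genes.

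With PBS, 7 of the 10 genes were lower and 1 higher under the TLR4-/- label than in WT, against 47.1% of all genes called. Tbx4 had 1355, 1399.7 and 1333 normalized counts in WT and 765, 770.4 and 691 under the label, a level 45.7% lower and a log2 fold change of -0.88 ± 0.050 (adjusted p = 1.29e-12). Tcf21 was 44.8% lower (-0.86 ± 0.12, adjusted p = 2.33e-06), Tbx2 43.9% (-0.83 ± 0.12, adjusted p = 1.01e-05), Foxf1 36.1% (-0.65 ± 0.090, adjusted p = 3.76e-06) and Tbx5 33.5% (-0.59 ± 0.093, adjusted p = 2.08e-05). Meox2, at 67.4, 86.9 and 98.9 in WT and 25.7, 20.1 and 33.8 under the label, differed most, by -1.66 ± 0.24 (adjusted p = 5.98e-06). In these 6 genes no library under the label reached the lowest WT library, and 51.7% of all genes had groups without overlap.

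Prrx1 was 26.2% lower, at -0.44 ± 0.083 (adjusted p = 0.000181), while Gata6 was higher, at 0.18 ± 0.061 (adjusted p = 0.0250), and neither overlapped between the labels. Hoxa5 (1689 to 1835 in WT, 1577 to 1703 under the label) and Twist1 (342 to 394 and 375 to 450.0) overlapped and were not called, at -0.12 (adjusted p = 0.461) and 0.17 (adjusted p = 0.148). Without WT PBS replicate 3 or TLR4-/- PBS replicate 2, Twist1 was called higher, at 0.23 (adjusted p = 0.0746) and 0.21 (adjusted p = 0.0979). The 8 called genes held without each library in turn.

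The labels also differed in cell type markers with PBS. All 13 macrophage markers differed, 12 higher and 1 (Marco) lower under the TLR4-/- label, with a median log2 fold change of 1.89 and sums of 86227 to 93896 in WT and 307978 to 354351. Of the fibroblast markers 9 of 15 were lower, Pdgfra (-1.19, adjusted p = 1.52e-08) and Thy1 (-1.16, adjusted p = 5.34e-16) by most, and 1 (Dcn) was higher. Of 7 smooth muscle markers 5 were lower and 1 higher, and of 6 endothelial markers 4 were lower and 1 higher. Of 5 mesothelial markers 1 was lower and 3 higher, and all 3 epithelial markers tested were higher. The part of these markers in the difference of the transcription factors was not tested. Xist, transcribed in female cells, was at 0 to 3.00 normalized counts in WT and 4328 to 6096 under the TLR4-/- label, and the Y-linked Ddx3y at 3509 to 4642 and 1847 to 2532. The labels came from different lungs, so genotype, sex of the mice and culture cannot be told apart. Per the paper each group of fibroblasts came from a pool of 3 to 4 lungs, so libraries of a label may share a pool. Scaled by the geometric mean of the fibroblast markers, which put the median of all genes at 0.34, Tbx4 was at -0.52 (adjusted p = 1.13e-07), Tcf21 at -0.49 (adjusted p = 0.000185), Tbx2 at -0.47 (adjusted p = 0.00194) and Foxf1 at -0.28 (adjusted p = 0.00461). On that scale Prrx1 was no longer called (-0.075, adjusted p = 0.324), and Twist1 (0.54, adjusted p = 0.000125) and Hoxa5 (0.25, adjusted p = 0.0901) were called higher. Scaled by the summed markers, where the median was 0.062, the 8 calls held and Twist1 was called higher, at 0.25 (adjusted p = 0.0578). Of all 16258 genes, 11691 were called on the geometric mean scale and 6347 on the summed scale, against 7665 otherwise.

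**Figure D5:**
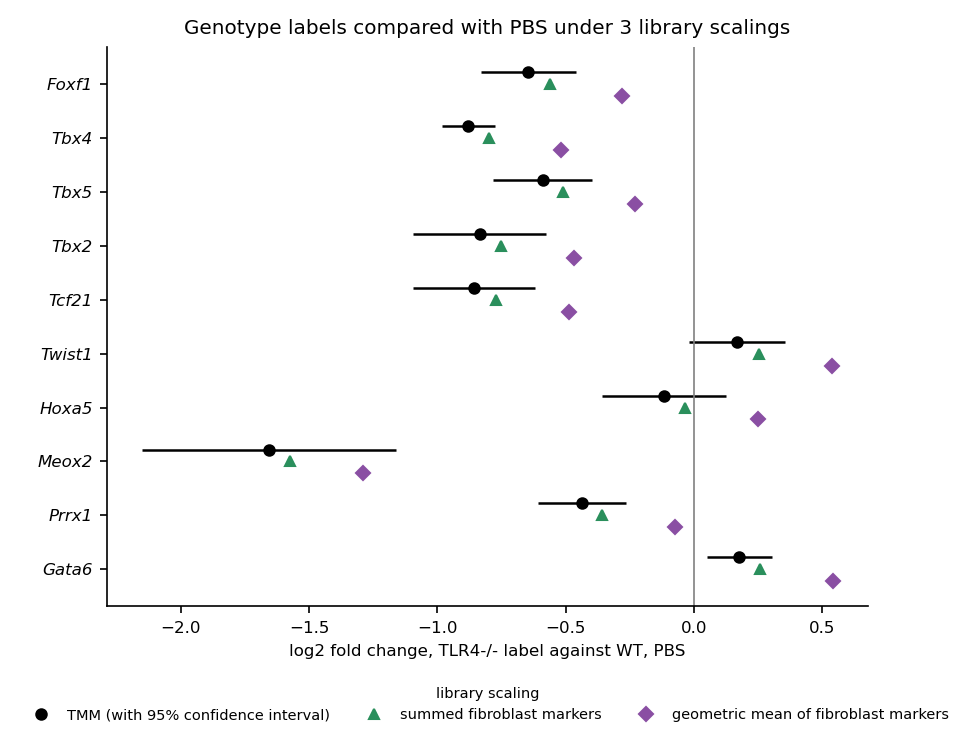
Log2 fold change of each of the 10 genes under the TLR4-/- label against WT with PBS, 3 libraries each, with libraries scaled by TMM (black, lines are 95% confidence intervals), by the summed fibroblast markers (green) or by their geometric mean (purple). Tbx4, Tcf21, Tbx2, Foxf1, Tbx5, Meox2 and Prrx1 lie below 0 on every scale, Gata6 and Twist1 above 0, and Hoxa5 on both sides.

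Across the 8 conditions the genes kept different orders. Foxf1 and Tbx4 were highest in WT rmCIRP (4577 ± 312 and 1599.7 ± 61.9 normalized counts, mean ± SD, n = 3), then in WT both, WT PBS and WT rmTGF-β1, and all 12 WT libraries of either gene lay above every library labelled TLR4-/-. Neighbours in this order overlapped for Foxf1 between WT PBS and rmTGF-β1 and for Tbx4 between WT both and PBS. Tbx2 was highest in WT PBS (2507 ± 238), whose libraries overlapped those of WT rmTGF-β1 (2488 ± 189), and its 12 WT libraries also lay above all TLR4-/- ones. The share of all genes whose 12 libraries of each label separate in this way was not counted. With PBS alone, 51.7% of all genes had no overlap between the labels.

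Tbx5 and Tcf21 were highest in WT PBS (747 ± 46.3 and 1304 ± 172). With rmCIRP, WT Tbx5 (461 ± 9.59) lay below TLR4-/- rmCIRP (504 ± 14.6), and also below TLR4-/- PBS (498 ± 11.5). With both, it was 484 ± 17.2 in WT and 407 ± 90.0 under the TLR4-/- label, which overlapped. The labels were not tested against each other within rmCIRP or within both. Tcf21 in WT both (755 ± 40.3) overlapped TLR4-/- PBS (722 ± 49.4). Meox2, also highest in WT PBS (84.4 ± 15.9), had WT both (29.0 ± 8.01) overlapping TLR4-/- PBS (26.6 ± 6.90). Hoxa5 was highest in WT PBS (1772 ± 74.9), followed by WT rmTGF-β1, TLR4-/- PBS and TLR4-/- rmCIRP, each overlapping the next, and lowest in both in either label (1239.7 ± 29.4 and 1185 ± 307).

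Prrx1 was highest in WT rmCIRP and PBS (13609.5 ± 684 and 13432 ± 1004), which overlapped. TLR4-/- PBS, TLR4-/- rmCIRP, WT rmTGF-β1 and WT both followed, each overlapping the next. TLR4-/- both (6399 ± 414) and TLR4-/- rmTGF-β1 (5207 ± 666) came last and overlapped no neighbour. Gata6 stood alone at the top in WT rmCIRP (849 ± 10.3) and from TLR4-/- PBS (771 ± 46.9) downwards overlapped its neighbours, except between WT PBS and WT both. Twist1 ran from 406 ± 39.2 in TLR4-/- PBS to 311 in TLR4-/- rmTGF-β1, and each condition overlapped the next.

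Related genes were counted from lists fixed with earlier results of these data known. Of 21 tested transcription factors of mesenchyme other than the 10, rmCIRP raised 6 and lowered 7 in WT, where 43.9% of all genes were called. The largest rises were in Meox1, a paralog of Meox2 (1.42, adjusted p = 2.95e-05), Tbx3, the T-box repressor closest to Tbx2 (0.88, adjusted p = 4.31e-05), and Twist2, a paralog of Twist1 (0.83, adjusted p = 2.36e-07). The largest falls were in Osr1 (-1.15, adjusted p = 1.55e-05), the hedgehog effector Gli2 (-0.69, adjusted p = 3.52e-05) and Hoxa2 (-0.59, adjusted p = 0.000510). In these paralog pairs Tbx3 rose where Tbx2 fell, and Meox1 rose where Meox2 was not called. With rmTGF-β1 the counts were 2 higher and 2 lower in WT, against 12.4% of all genes called, and 5 and 9 under the TLR4-/- label, against 23.9%. With rmCIRP under that label edgeR called none, with 1 at an unadjusted p under 0.05. Under the TLR4-/- label with PBS, 16 of the 21 were lower than in WT and none higher, against 47.1% of all genes called, led by Gli2 (-0.98, adjusted p = 2.29e-07), Tbx3 (-0.85, adjusted p = 8.15e-05) and Prrx2 (-0.81, adjusted p = 1.29e-05).

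Signals and receptors of the hedgehog, FGF, WNT, BMP and retinoic acid pathways were counted in the same way. Of 21 tested, 12 were called with rmCIRP in WT, against 43.9% of all genes. Treatment with rmCIRP raised 5, led by the hedgehog receptor Ptch1 (0.52, adjusted p = 1.29e-07), its partner Gas1 (0.47, adjusted p = 0.0816) and Fgf7 (0.38, adjusted p = 0.00647), and lowered 7, led by the WNT agonist Rspo2 (-1.61, adjusted p = 0.0108), the retinoic acid enzyme Aldh1a1 (-0.52, adjusted p = 0.00111) and Cdon (-0.51, adjusted p = 0.000103). With rmTGF-β1 in WT, 4 rose, led by Wnt2 (1.00, adjusted p = 0.00230), and 6 fell, among them Bmp4 (-0.90, adjusted p = 3.96e-06), against 12.4% of all genes called. Under the TLR4-/- label with PBS, 12 were lower and 3 higher, against 47.1% of all genes called, and the largest differences were in the hedgehog antagonist Hhip (-2.58, adjusted p = 0.00231), in Fgf10 (-2.27, adjusted p = 5.56e-13), the branching signal downstream of Tbx4 and Tbx5, and in Rspo2 (-2.16, adjusted p = 0.00194).

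Non-coding neighbours were measured for 3 of the 10 genes. Fendrr, a long non-coding RNA transcribed from the start region of Foxf1 in the opposite direction, had 189, 192 and 229 normalized counts (lowest to highest) in WT PBS and 353, 394 and 407 in WT rmCIRP, a rise of 0.92 (adjusted p = 2.72e-05) beside that of Foxf1. Fendrr was also lower under the TLR4-/- label with PBS, at -0.84 (adjusted p = 0.000264), and its response to rmCIRP differed between the labels by -0.79 (adjusted p = 0.0132). Hoxaas2, an antisense RNA of the Hoxa cluster, fell with rmCIRP in WT at -0.79 (adjusted p = 0.00114), as Hoxa5 did at -0.27. Hoxaas3 was not called there (-0.21, adjusted p = 0.331). Gata6os, at 11.6 to 31.8 counts over all libraries, was not called with rmCIRP in WT, at 0.33 (adjusted p = 0.342). In the annotation used for lengths, exons of Foxf1 shared 4.06% of their bases, and those of Gata6 1.43%, with a gene on the opposite strand (Gm27530 and 1010001N08Rik), the other 8 members shared none, and the strand setting of the counting is not given in the sources used here.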

How the data were processed

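Deposited counts of reads per gene symbol were used as the authors made them: stranded total RNA libraries, aligned with STAR to the mouse GENCODE reference per the paper, and counted with htseq. The submitters' processing notes name build NCBIM37, and the strand setting of the counting and the annotation release are not given in the sources used here. The 5 tally lines (14.5% to 16.1% of reads) were left out. Columns of other samples numbered 0.

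Genes were filtered by condition with edgeR's filterByExpr (16258 tested of 55291), scaled by TMM, and tested by edgeR's quasi-likelihood test with 1 mean per condition over all 24 libraries, Benjamini-Hochberg adjustment over all tested genes and a threshold of adjusted p under 0.1. SEs and 95% intervals come from that fit. Printed levels are counts divided by DESeq2 size factors, and levels per kilobase used merged exon lengths of GENCODE M21, which matched all 10 members. Adjusted p-values without another name are edgeR's. All 10 members are described, and of each related list at most the 3 genes with the largest called rise and the 3 with the largest called fall in a comparison are named. Members and lists were chosen with earlier results of these data known.

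Depth was 29853346 to 39664606 counts per library. Replicates of each condition differed by more than counting noise (chi-square per degree of freedom 2.52 to 45.7), so none was counted as a copy. On average same-numbered libraries did not deviate together (84 pairs, mean correlation 0.012, range -0.117 to 0.369, 4 above 0.1), so numbers were not treated as pairs. Alternatives were RLE scaling, DESeq2, other filters, only the libraries compared, a replicate block, a threshold of 0.05, each library left out, and scaling by the sum of the fibroblast markers or, chosen after seeing the data, by their geometric mean. The fitting code was tested on simulated data. R 4.3.3, edgeR 4.0.16, DESeq2 1.42.0, limma 3.58.1, Python 3.11.15 and matplotlib 3.10.9 were used.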

Additional observations from a re-analysis of the deposited data

Results flagged for a closer look

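The response to rmCIRP differed between the WT and TLR4-/- labels, by the interaction term of edgeR's fit over all 24 libraries (adjusted over 16258 genes), for 6 of the 10 transcription factors. The difference, TLR4-/- minus WT on the log2 scale with 3 libraries per condition, was -0.76 for Foxf1, -0.47 for Gata6, -0.24 for Tbx4 and -0.29 for Twist1. It was 0.73 for Tbx5 and 0.46 for Tcf21. The same difference was called for 31.4% of all genes tested. The differences of Twist1 and Tcf21 lost their call when single libraries were left out. Libraries of either label also differed in their macrophage markers, and the part of this in the result was not tested.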

How the results depend on the processing

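Of 120 log2 values of the 10 genes over 12 comparisons, 52 were called. The comparisons share libraries, so these values are not independent, and the share of all genes called ran from 0% to 47.1% between them. Leaving out 1 library at a time kept 291 of 348 recomputed called values past the threshold and took 57 below it, none with a change of sign. The cause of the changes below was not tested. Fits of only the compared libraries hold fewer samples, and the fit without a filter holds more genes. Values of Meox2 rest on few reads per library, so smaller changes than its intervals span could not be seen at this depth.

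With DESeq2, 2 genes were called for both against rmTGF-β1 under the TLR4-/- label (1 by edgeR) and 1 for the genotype difference in the rmTGF-β1 response (0 by edgeR). DESeq2 gave Meox2 no adjusted p in either comparison. With no filter on low counts these counts were 3 and 4, the interaction in WT had 1 call in place of 0, and Tbx2 with rmTGF-β1 in WT turned to 0.0023. Of all genes, DESeq2 called 902 and 163 in the first 2 comparisons. Without a filter edgeR called 1580 and 563 there, against 437 and 14 otherwise. For the WT interaction edgeR called 198 without a filter, against 8 otherwise. With only the libraries compared, 6 genes in place of 2 were called for rmTGF-β1 in WT, 0 in place of 1 for both against rmTGF-β1 under the TLR4-/- label, and 2 in place of 6 for both against rmCIRP under that label. Of all genes, 2983 of 15088, 0 of 15248 and 2710 of 15192 were then called, against 2019, 437 and 5329 of 16258. At an adjusted p under 0.05, 1 gene was called for rmTGF-β1 in WT, 5 in place of 8 for it under the TLR4-/- label, and 0 for both against rmTGF-β1 under that label. All genes called at this threshold were 1398, 2854 and 19 of 16258, against 2019, 3884 and 437.

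A replicate block gave 2 calls in place of 1 for both against rmTGF-β1 under the TLR4-/- label, and no other count of calls moved by over 1.5 times. The numbers do not pair the libraries.

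Scaled by the summed fibroblast markers, rmTGF-β1 in WT had 6 calls, and both against rmTGF-β1 under the TLR4-/- label had 3. Of all genes, 3719 and 1314 of 16258 were called there, against 2019 and 437 otherwise. Values that changed sign on this scale were Hoxa5 with rmCIRP in WT (0.056), Prrx1 for both against rmTGF-β1 in WT (0.11), Tbx5 for both against rmCIRP in WT (-0.090), and, under the TLR4-/- label, Tbx5 for both against rmTGF-β1 (0.068) and Tbx4 (0.041) and Twist1 (0.072) for both against rmCIRP. So did the genotype difference of Hoxa5 in the rmCIRP response (-0.083) and those of Tbx4 (0.069) and Tbx5 (0.052) in the rmTGF-β1 response.

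Scaled by their geometric mean, chosen after seeing the data, rmTGF-β1 had 1 call in WT and 5 under the TLR4-/- label, and both against rmTGF-β1 under that label had 0. Of all genes, 948, 2695 and 60 of 16258 were called there, against 2019, 3884 and 437 otherwise. Sign changes were Prrx1 for both against rmTGF-β1 in WT (0.015), Tbx4 (0.0047), Tcf21 (0.00085) and Hoxa5 (0.012) with rmCIRP under the TLR4-/- label, Twist1 for both against rmCIRP there (0.00055), Hoxa5 between the labels with PBS (0.25), and the genotype differences of Tbx4 (0.047) and Tbx5 (0.033) in the rmTGF-β1 response. Over both marker scalings, 85 of 104 called values held, 16 fell below the threshold and 3 changed sign.

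Leaving out 1 library gave 1 to 3 calls for rmTGF-β1 in WT, 4 to 7 for it under the TLR4-/- label, 0 to 3 for both against rmTGF-β1 under that label, and 0 to 1 for the genotype difference in the rmTGF-β1 response. Calls over all genes then ran, in the same order, from 1029 to 1690, from 2517 to 3783, from 0 to 2674 and from 0 to 119. Uncalled values that crossed 0 when 1 library was left out ran, with rmCIRP in WT, from -0.020 to 0.082 for Prrx1, and with rmTGF-β1 in WT from -0.067 to 0.051 for Tbx2, from -0.11 to 0.024 for Hoxa5 and from -0.075 to 0.039 for Twist1. For both against rmTGF-β1 in WT, Twist1 ran from -0.037 to 0.067, and the WT interaction of Tcf21 from -0.18 to 0.0028. With rmCIRP under the TLR4-/- label the ranges were -0.074 to 0.026 for Tbx4, -0.0011 to 0.043 for Tbx5, -0.070 to 0.032 for Tcf21, -0.037 to 0.019 for Hoxa5, -0.22 to 0.23 for Meox2 and -0.094 to 0.025 for Prrx1. For both against rmTGF-β1 under that label they were -0.16 to 0.14 for Tbx5, -0.28 to 0.011 for Tcf21 and -0.28 to 0.051 for Hoxa5, and against rmCIRP -0.066 to 0.030 for Twist1. The genotype difference in the rmCIRP response ran from -0.12 to 0.0034 for Prrx1 and that in the rmTGF-β1 response from -0.093 to 0.0019 for Tbx4.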
